A study of Mus musculus with 6 samples.

Results

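The 10 genes described here encode the enzymes of the pentose phosphate pathway and the cytosolic enzymes that make NADPH or its precursor. They were chosen by function from the 24562 gene symbols of the count table: G6pdx, Pgls and Pgd of the oxidative branch, Tkt, Taldo1, Rpia and Rpe of the non-oxidative branch, and Me1, Idh1 and Nadk outside the pathway. All 10 had enough counts to be tested. No measured value was used to choose them by rule, although earlier results of these data were known when they were proposed.

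NADPH is the electron donor for fatty acid and sterol synthesis, for the regeneration of reduced glutathione and thioredoxin, and for the oxidative burst of phagocytes. The oxidative branch of the pentose phosphate pathway reduces NADP+ to NADPH while it converts glucose-6-phosphate to a pentose phosphate, and the reversible non-oxidative branch exchanges pentose phosphates with intermediates of glycolysis. Malic enzyme and cytosolic isocitrate dehydrogenase make NADPH from malate and isocitrate, metabolites connected to the citrate that ATP citrate lyase (Acly) cleaves to acetyl-CoA and oxaloacetate.

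RNA was sequenced from unstimulated ("Naive") bone marrow-derived macrophages (BMDMs) of female mice, in 3 control and 3 AclyM-KO libraries. AclyM-KO mice carry floxed Acly alleles and a Cre recombinase driven from the Lyz2 locus, which is active in macrophages, monocytes and neutrophils, and control mice carry the floxed alleles without Cre, so both groups share the loxP sites but only one has Cre. The floxed mice were C57BL/6J, and the labels give neither their age nor which libraries share an animal. The study's methods describe its in vitro work as a whole as done with bone marrow of young adult mice of both sexes, whereas the series' design names female mice for these libraries. The study's legends for gene expression panels drawn from these deposited RNA data give 3 technical replicates from 3 pooled mice. The p-values here thus measure the spread between libraries and not that between mice.

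Total counts per library were 19327459 to 23582992 in controls and 19797218 to 44507233 in AclyM-KO, the highest being AclyM-KO replicate 2, with 2.18 times the mean of the other 5 libraries. Levels are given as CPM, counts scaled by library size with edgeR's TMM factors, changes as log2 fold changes of AclyM-KO over control with the standard error (SE), and significance as edgeR's quasi-likelihood p adjusted by the Benjamini-Hochberg method over 11470 genes, with a threshold of 0.05. Acly itself was at 220.4, 233.0 and 235.8 CPM in control replicates 1, 2 and 3 and at 93.3, 98.9 and 98.3 CPM in AclyM-KO replicates 1, 2 and 3 (log2 fold change -1.25, SE 0.066, adjusted p = 5.58e-07), where the count covers the whole transcript and not only the deleted part. The summed level of 8 macrophage markers was 8828 to 9011 CPM in controls and 7200 to 8450 CPM in AclyM-KO. Of these, 3 markers, Csf1r and Mertk among them, passed the test as lower and 5 did not, and none passed as higher. Csf1r, the most abundant in controls, was at 3091 to 3380 CPM there and at 1733 to 2813 CPM in AclyM-KO. Cd14 was at 197 to 215 CPM in controls and higher in every AclyM-KO library, at 219 to 238 CPM. Adgre1, Cd68, Itgam and Fcgr1 overlapped between the groups. The 7 neutrophil markers summed to 18.8 to 22.7 CPM in controls and 19.7 to 22.9 CPM in AclyM-KO, 4 B cell markers summed to at most 4.48 CPM in any library, and the T and NK cell, dendritic, stromal, erythroid and mast cell lists to at most 1.46 CPM, with 6 of their 20 markers at 0 in all libraries. In these bulk samples, fewer cells of a type and less RNA per cell cannot be told apart.

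Of the 10 genes, Me1, Tkt, Pgd and Taldo1 were higher in AclyM-KO BMDMs and none was lower. Per transcript length Me1 was the lowest of the 10 genes, and it rose 2.65-fold, whereas the 3 pentose phosphate genes rose 1.17- to 1.36-fold from high levels. G6pdx, Rpia, Rpe, Idh1, Pgls and Nadk did not pass the test. Among all 11470 genes tested, 6.70% passed as higher, 5.65% as lower and 12.3% in either direction. None of the 10 genes was lower at an unadjusted p of 0.05 or by DESeq2, which called 3 higher. Of all genes, DESeq2 called 1325 in either direction. How many of all genes passed at an unadjusted p of 0.05 was not counted. Counts at that p, here and for the lists below, therefore stand without a share over all genes and show no excess over it. The median log2 fold change of the 10 genes was 0.18, beside 0.000259 over all genes tested. A positive value was found in 8 of the 10, beside 5738 of the 11470 genes tested. Among the 8, Idh1 and Rpe were near 0, at 0.03 and 0.05, and turned sign in some alternatives. In 5 of the 10, namely G6pdx, Pgd, Tkt, Taldo1 and Me1, every AclyM-KO library lay above every control library, a pattern that 16.3% of all tested genes had.

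**Figure D1:**
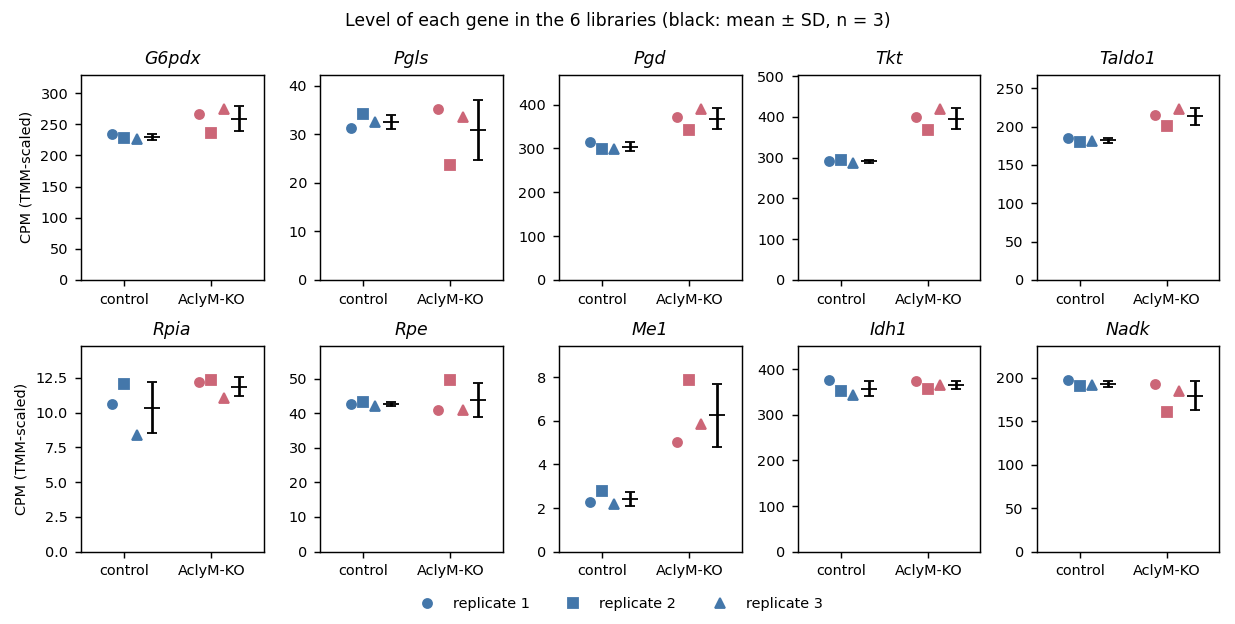
Level of each of the 10 genes in CPM (linear axes from 0, a scale of its own for each gene) in 3 control (blue) and 3 AclyM-KO (red) libraries, with symbols for replicates 1, 2 and 3 and the mean ± SD in black. For Pgd, Tkt, Taldo1, Me1 and G6pdx the AclyM-KO points lie above all control points, and replicate 2 is the lowest AclyM-KO point in each of these except Me1, where it is the highest.

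The sequences just upstream of the transcription start are shown for the 4 genes that passed the test and for G6pdx, the rate-limiting step of the pathway, which was added after its values were seen. They come from the RefSeq promoter table for GRCm38.p6 (mm10), in which all 10 genes were found, with 14 windows of 250 bases before and 50 after an annotated start. Each line gives the 120 bases before the start and the first 20 transcribed bases, read 5′ to 3′ on the gene's strand, and capitals mark matches, on either strand, to the antioxidant response element core TGACNNNGC, the sterol response element TCACNCCAC or the CCAAT box.
Tkt, chr14:30549011-30549150 (+ strand): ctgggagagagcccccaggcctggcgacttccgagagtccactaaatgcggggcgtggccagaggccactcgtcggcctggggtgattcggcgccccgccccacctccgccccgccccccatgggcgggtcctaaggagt
Me1, chr9:86695895-86696034 (- strand): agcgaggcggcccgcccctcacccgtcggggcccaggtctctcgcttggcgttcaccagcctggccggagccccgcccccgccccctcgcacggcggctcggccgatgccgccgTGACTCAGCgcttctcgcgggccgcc
Pgd, chr4:149166686-149166825 (- strand): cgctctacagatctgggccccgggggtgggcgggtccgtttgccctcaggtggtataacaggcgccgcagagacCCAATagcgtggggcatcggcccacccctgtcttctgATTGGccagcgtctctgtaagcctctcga
Taldo1, chr7:141392040-141392179 (+ strand): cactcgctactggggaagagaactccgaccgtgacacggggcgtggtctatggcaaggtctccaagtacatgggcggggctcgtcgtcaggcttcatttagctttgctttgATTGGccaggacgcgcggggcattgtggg
G6pdx, chrX:74428861-74429000 (- strand): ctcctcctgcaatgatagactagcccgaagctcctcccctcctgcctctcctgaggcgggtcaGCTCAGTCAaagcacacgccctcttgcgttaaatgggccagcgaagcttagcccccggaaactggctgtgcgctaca

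The Me1 sequence holds the letters TGACTCAGC, a match to the antioxidant response element core, beginning 6 bases before the first transcribed base. Those letters also contain TGACTCA, the binding motif of AP-1, and the search does not separate them. G6pdx holds the core on the opposite strand, in the letters GCTCAGTCA, beginning 57 bases before the start. Of the 14 windows of the 10 genes, 3 held this core, beside 12.4% of 32851 promoter windows of all genes. These 3 were the printed windows of Me1 and G6pdx and the second Pgd window, not shown. CCAAT or its reverse complement ATTGG stood in 6 of the 14 windows, among them Taldo1 beginning 9 bases and Pgd beginning 46 and 9 bases before the start, beside 37.4% of all windows. None of the 14 windows held the letters of the sterol response element, which 1.24% of all windows held. The printed Tkt stretch held none of the 3 motifs. RefSeq lists more than 1 start for Me1 and for Pgd, and the stretch of the start farthest upstream is printed for both. The second Me1 window, not shown, held no antioxidant response element core. The first bases of the transcript that stood for Me1 were found in that second window and not in the printed one. A match is a string of letters, and no binding was measured.

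In the oxidative branch, Pgd was higher in AclyM-KO, and G6pdx and Pgls did not pass the test. Pgd (NM_001081274, chr4:149149991-149166705, mm10) encodes 6-phosphogluconate dehydrogenase, which makes the second NADPH of the branch and releases the pentose phosphate. It was at 315.0, 298.4 and 298.5 CPM in control replicates 1, 2 and 3 and at 370.4, 342.9 and 390.3 CPM in AclyM-KO replicates 1, 2 and 3. All AclyM-KO libraries were above all controls, and the lowest of them was replicate 2. The means were 304.0 ± 9.55 CPM (SD, n = 3) in controls and 367.9 ± 23.8 CPM (SD, n = 3) in AclyM-KO, a 1.21-fold increase (log2 fold change 0.27, SE 0.068, 95% interval 0.13 to 0.42, adjusted p = 0.0231). Its adjusted p was 0.0739, 0.114 and 0.127 in edgeR without control replicate 1, 2 or 3, and 0.0780 without AclyM-KO replicate 3, with log2 fold changes of 0.23 to 0.30. It passed without AclyM-KO replicate 1 (0.27, adjusted p = 0.0486) and replicate 2 (0.33, adjusted p = 1.37e-04). Leaving out any control library also lowered the number of genes called among all genes, from 1416 to between 598 and 658.

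G6pdx (NM_008062, chrX:74409483-74428880) encodes the X-linked glucose-6-phosphate dehydrogenase, the rate-limiting entry step of the pathway, which makes its first NADPH. It was at 234.4, 228.5 and 225.8 CPM in the controls and at 266.2, 236.8 and 275.2 CPM in AclyM-KO replicates 1, 2 and 3. The groups did not overlap, but the gap between AclyM-KO replicate 2 and control replicate 1 was smaller than the range of the controls. The log2 fold change of G6pdx was 0.17 (SE 0.071, 95% interval 0.02 to 0.33, adjusted p = 0.137 in edgeR, with an unadjusted p of 0.0307). Without AclyM-KO replicate 2 it was 0.24 with an adjusted p of 0.00199, and with offsets for transcript GC content and length in all 6 libraries it was 0.18 with an adjusted p of 0.0407. Under those settings 9.56% and 9.49% of all genes passed as higher. It also passed with limma-voom and sample weights (adjusted p = 0.00535) and with the offsets but without AclyM-KO replicate 2 (adjusted p = 0.00257), where 9.68% and 8.91% of all genes passed as higher. Its exons share 418 bases with Ikbkg on the other strand, whose summed count over the 6 libraries was 7548 beside 20618 for G6pdx, and the sources used here say that the counting ran at its default settings without spelling out how those treat strand. The intronless autosomal copy G6pd2 was at 1.10 to 3.82 CPM in the 6 libraries and did not pass the test (log2 fold change -0.45, adjusted p = 0.578).

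Pgls (NM_001294269, chr8:71592184-71596267) encodes 6-phosphogluconolactonase, the step between those dehydrogenases. It was at 31.2, 34.1 and 32.5 CPM in controls and at 35.3, 23.7 and 33.6 CPM in AclyM-KO replicates 1, 2 and 3. The groups overlapped, and AclyM-KO replicate 2 was the lowest of all 6 libraries. The log2 fold change was -0.10 (95% interval -0.40 to 0.20, adjusted p = 0.702), and without that library it was 0.08 (adjusted p = 0.572). Pgls shares 776 exon bases with Fam129c, which had 33 counts over all libraries.

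In the non-oxidative branch, the transketolase and transaldolase genes rose, and the genes of the pentose phosphate isomerase and epimerase did not pass the test. Tkt (NM_009388, chr14:30549131-30574724) encodes transketolase, which moves carbon units between pentose phosphates and glycolytic sugars. It was at 292.0, 293.3 and 286.0 CPM in controls and at 399.0, 368.1 and 419.7 CPM in AclyM-KO replicates 1, 2 and 3. Every AclyM-KO library was above every control, by more than the whole range of the controls. The means of 290.4 ± 3.89 CPM (SD, n = 3) and 395.6 ± 26.0 CPM (SD, n = 3) gave a 1.36-fold increase (log2 fold change 0.45, SE 0.067, 95% interval 0.30 to 0.59, adjusted p = 0.00186). Tkt passed the test under all 17 alternatives, with log2 fold changes from 0.40 to 0.50 and adjusted p-values up to 0.0225.

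Taldo1 (NM_011528, chr7:141392160-141402976) encodes transaldolase, the companion enzyme of transketolase. It was at 185.2, 179.3 and 181.2 CPM in controls and at 215.5, 200.9 and 223.2 CPM in AclyM-KO replicates 1, 2 and 3. The groups did not overlap, and replicate 2 was again the lowest AclyM-KO library. The means were 181.9 ± 2.99 and 213.2 ± 11.3 CPM (SD, n = 3 each), a 1.17-fold increase (log2 fold change 0.23, SE 0.066, 95% interval 0.08 to 0.37, adjusted p = 0.0439). This call was close to the threshold, and Taldo1 passed in 8 of 17 alternatives. The adjusted p was 0.0533 in DESeq2, 0.0501 in edgeR with no filter on low counts, 0.0504 with AclyM-KO replicate 2 thinned to the median depth of the other libraries, 0.0873 to 0.171 in edgeR without any one of the 3 controls or AclyM-KO replicate 1 or 3, and 8.59e-04 without AclyM-KO replicate 2. With single libraries left out its log2 fold change stayed between 0.19 and 0.27.

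Rpia (NM_009075, chr6:70765720-70792175), encoding ribose-5-phosphate isomerase A, which forms the ribose-5-phosphate used for nucleotides, was low. It was at 10.6, 12.0 and 8.39 CPM in controls and at 12.2, 12.3 and 11.1 CPM in AclyM-KO, from 93 to 326 counts per library. The groups overlapped through AclyM-KO replicate 3, and the log2 fold change was 0.19 (95% interval -0.13 to 0.52, adjusted p = 0.436), so an increase as large as that of Tkt lies inside the interval. It was 0.06 without control replicate 3 and 0.32 without control replicate 2. Rpe (NM_001310643, chr1:66700797-66719805), encoding ribulose-5-phosphate 3-epimerase, was at 42.6, 43.2 and 42.2 CPM in controls and at 40.9, 49.5 and 41.1 CPM in AclyM-KO replicates 1, 2 and 3. AclyM-KO replicate 2 alone was above the controls and the other two AclyM-KO libraries were below them. The log2 fold change was 0.05 (95% interval -0.16 to 0.25, adjusted p = 0.7996), and -0.06 without that library. The upper bound for Rpe was below the lower bound of the interval for Tkt, though the difference between the genes was not tested. Rpe shares 558 exon bases with Kansl1l on the other strand.

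Outside the pathway, Me1 rose and Idh1 and Nadk did not pass the test. Me1 (NM_001198933, chr9:86581363-86695914) encodes cytosolic malic enzyme, which turns malate into pyruvate and makes NADPH. It was at 2.27, 2.77 and 2.17 CPM in controls and at 5.05, 7.86 and 5.85 CPM in AclyM-KO replicates 1, 2 and 3. These levels rest on 25, 37 and 24 counts in controls and on 58, 208 and 67 counts in AclyM-KO. The lowest AclyM-KO level was above the highest control level, and replicate 2 was the highest of all libraries. The means were 2.40 ± 0.320 and 6.25 ± 1.45 CPM (SD, n = 3 each), a 2.65-fold increase (log2 fold change 1.40, SE 0.23, 95% interval 0.91 to 1.90, adjusted p = 0.00252). Me1 passed under all 18 alternatives, with log2 fold changes from 1.17 to 1.52. The lowest came without AclyM-KO replicate 2 (adjusted p = 0.00139). Both Me1 transcripts had nearly the same counts, 419 and 412 over the 6 libraries, so the counts do not separate its starts.

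Idh1 (NM_010497, chr1:65158616-65186479) encodes cytosolic isocitrate dehydrogenase, which makes NADPH as it oxidises isocitrate. It was at 375.8, 353.1 and 344.2 CPM in controls and at 374.4, 356.9 and 366.1 CPM in AclyM-KO. The AclyM-KO values lay within the control range, with a log2 fold change of 0.03 (95% interval -0.11 to 0.17, adjusted p = 0.799), and with 0.00400 to 0.0679 when single libraries were left out. Nadk (NM_001159637, chr4:155562381-155591001) encodes the cytosolic kinase that makes NADP+ from NAD+. It was at 196.6, 190.0 and 191.4 CPM in controls and at 192.5, 160.0 and 184.9 CPM in AclyM-KO replicates 1, 2 and 3. AclyM-KO replicate 1 fell among the controls and replicate 2 was the lowest library. The log2 fold change was -0.11 (95% interval -0.28 to 0.06, adjusted p = 0.410), and Nadk passed under none of the 18 alternatives. Its log2 fold change was -0.03 without AclyM-KO replicate 2 and -0.17 without AclyM-KO replicate 1.

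**Figure D2:**
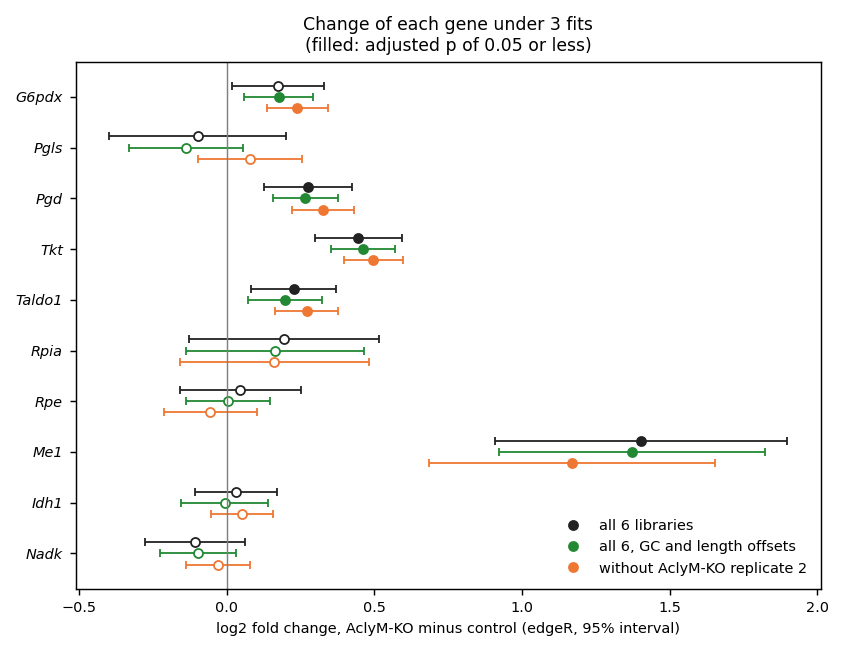
Log2 fold change of each gene (AclyM-KO minus control, edgeR) with its 95% interval, in all 6 libraries (black), with offsets for GC content and length (green) and without AclyM-KO replicate 2 (orange), filled where the adjusted p was 0.05 or less. Me1 stands at 1.17 to 1.40, Tkt, Pgd and Taldo1 are filled in all 3 fits, and G6pdx is filled in the last 2.

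Compared per transcript length (RPKM, here the CPM per kilobase of transcript), Idh1 and Taldo1 were the highest in controls, at 155.4 ± 7.07 and 148.0 ± 2.43 RPKM (SD, n = 3 each), and their control ranges overlapped. Pgd followed at 137.1 ± 4.31 RPKM, then Tkt at 90.1 ± 1.21, G6pdx at 86.6 ± 1.64, Nadk at 61.1 ± 1.11, Pgls at 30.7 ± 1.36, Rpe at 15.8 ± 0.184, Rpia at 5.66 ± 1.005 and Me1 at 0.729 ± 0.0971 RPKM. Apart from Idh1 and Taldo1, no neighbours in this order overlapped in their control values. Ranked by mean RPKM over all 6 libraries of both groups, Idh1, Taldo1, Pgd and Tkt lay between the 95.3 and 97.3 percentiles. Me1 lay at the 11.4 percentile, out of 11253 tested genes with a known length. In AclyM-KO libraries, Taldo1 reached 173.4 ± 9.22 RPKM and Pgd 165.9 ± 10.7 RPKM, beside 158.9 ± 3.81 RPKM for Idh1, but the range of Pgd overlapped with those of Taldo1 and Idh1, and Pgd was below Idh1 in AclyM-KO replicate 2.

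G6pdx, Pgd, Me1 and Idh1, the genes whose enzymes reduce NADP+ directly, summed to 379.7 ± 12.9 RPKM in controls and 424.5 ± 20.6 RPKM in AclyM-KO (SD, n = 3 each). Within this sum, the share of Idh1 was 40.9% in controls and 37.5% in AclyM-KO, and that of Pgd was 36.1% and 39.1%. G6pdx held 22.8% and 23.0%. Me1, despite having the largest fold change of the 10 genes, held 0.192% of the sum in controls and 0.451% in AclyM-KO. The 3 oxidative genes together were at 254.3 ± 4.89 RPKM in controls and 292.7 ± 23.6 RPKM in AclyM-KO, and the 4 non-oxidative genes at 259.6 ± 3.20 and 319.0 ± 15.3 RPKM. The log2 ratio of the oxidative over the non-oxidative sum was -0.02, -0.04 and -0.04 in controls and -0.09, -0.19 and -0.10 in AclyM-KO replicates 1, 2 and 3. It was lower in every AclyM-KO library than in every control, by 0.10 in the mean, and no test was made of these sums. They are sums of RNA levels and not of enzyme activity.

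Over all tested genes, AclyM-KO replicate 2 differed from the other AclyM-KO libraries in step with the GC content of the transcripts, which the 10 genes followed in part. Its median log2 deviation ran from 0.19 for transcripts of at most 42% GC to -0.30 above 58%, while no control library deviated by more than 0.02 in any class. Relative to the mean of AclyM-KO replicates 1 and 3, replicate 2 was higher for Rpe by 0.27 and for Me1 by 0.49 on the log2 scale, whose transcripts had 39.0% and 45.1% GC. It was lower for Pgls, at -0.53 and with 65.9% GC. For Taldo1, Tkt, Pgd and G6pdx, with 52.6% to 54.2% GC, it stood at -0.13, -0.15, -0.15 and -0.19. Idh1, with 43.8% GC, stood at -0.05, below 0 despite its low GC content, and Rpia and Nadk, with 51.9% and 52.2% GC, stood at 0.08 and -0.24, on opposite sides of 0. With the offsets for GC content and length, 5 of the 10 genes passed as higher, G6pdx being the one added, and the same number passed without replicate 2. The share of depth or GC content in the spread of these genes was not tested.

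**Figure D3:**
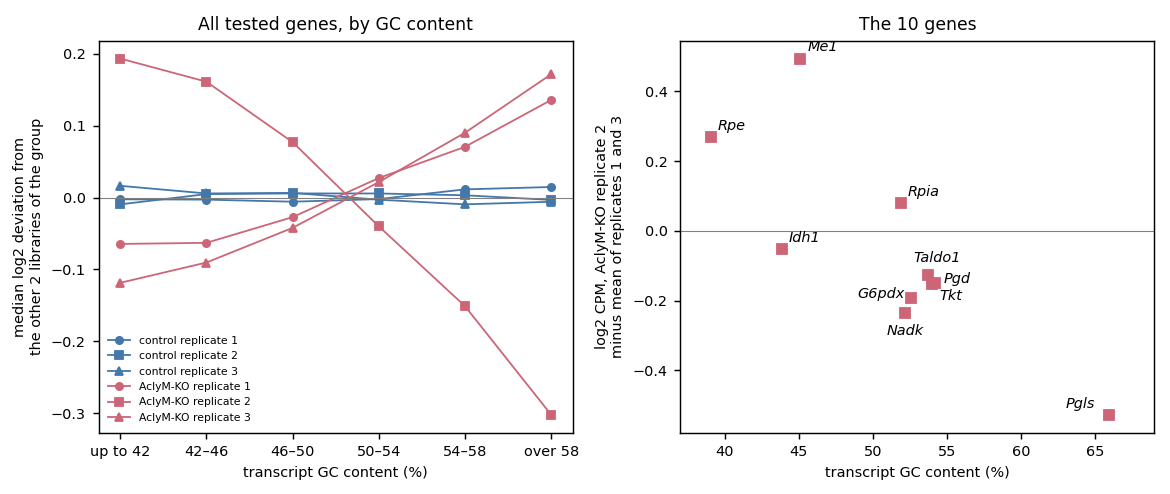
Left, median log2 deviation of each library from the other libraries of its group, over all tested genes in classes of transcript GC content (%). Right, log2 CPM of AclyM-KO replicate 2 minus the mean of replicates 1 and 3 for the 10 genes against GC content: replicate 2 runs from 0.19 to -0.30 across the classes on the left, and on the right Rpe, Me1 and Rpia lie above the line at 0 and the other 7 genes below it, Pgls furthest and Idh1, of low GC content, at -0.05.

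Other genes around the pathway mostly did not pass the test. Of 11 other pentose phosphate and ribose genes, 9 were tested, of which 1 was lower and none higher (2 lower and 1 higher at an unadjusted p of 0.05, and 1 and 0 by DESeq2), with a median log2 fold change of -0.15. The lower gene was Prps2, a ribose phosphate pyrophosphokinase that starts nucleotide synthesis from ribose-5-phosphate. It was at 119.0, 108.0 and 114.8 CPM in controls and at 101.7, 95.8 and 84.8 CPM in AclyM-KO (log2 fold change -0.27, adjusted p = 0.0468). The groups did not overlap, but the call was lost without any one control library or AclyM-KO replicate 3, at adjusted p-values of 0.0904 to 0.187 and log2 fold changes of -0.31 to -0.21, and with total counts in place of TMM scaling, at 0.0853. H6pd, which runs the oxidative steps in the endoplasmic reticulum, did not pass the test (log2 fold change -0.24, adjusted p = 0.191, and -0.09 without AclyM-KO replicate 2). Dera, a deoxyribose-phosphate aldolase named after its values were seen, passed as higher without AclyM-KO replicate 1 (0.36), and the transketolase-like genes Tktl1 and Tktl2 had no counts.

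Of 10 other NADPH makers, in mitochondria or in folate metabolism, 8 were tested, 2 were higher and none lower (3 higher and 1 lower at an unadjusted p of 0.05, and 2 and 0 by DESeq2), with a median log2 fold change of 0.16. Mthfd2, a mitochondrial enzyme of folate metabolism, was at 17.8, 21.7 and 20.5 CPM in controls and at 30.7, 60.8 and 34.99 CPM in AclyM-KO replicates 1, 2 and 3. Replicate 2 was far above the other AclyM-KO libraries, all of which were above the controls (log2 fold change 1.10, adjusted p = 0.00715, and 0.71 without replicate 2). Aldh1l1, a cytosolic formyltetrahydrofolate dehydrogenase, was higher by 0.34 on the log2 scale (adjusted p = 0.0297) and lost its call without any one library except AclyM-KO replicate 2, at adjusted p-values of 0.0546 to 0.148 and log2 fold changes of 0.29 to 0.38. Idh2, the mitochondrial counterpart of Idh1, did not pass the test (log2 fold change -0.10, adjusted p = 0.385, and -0.07 without control replicate 2), and Me3, a mitochondrial malic enzyme, had no counts.

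The genes of enzymes that spend NADPH differed by list. Of 11 reductive lipid and sterol genes, 9 were higher and none lower, also at an unadjusted p of 0.05 and by DESeq2, with a median log2 fold change of 1.48. Fasn, the fatty acid synthase, was at 127.3, 133.1 and 150.4 CPM in controls and at 476.7, 469.5 and 414.7 CPM in AclyM-KO, with no overlap (log2 fold change 1.73, adjusted p = 2.51e-07). The log2 fold changes of Sqle and Dhcr7, which act in sterol synthesis, were 1.69 and 1.38. Por, the flavoprotein that passes electrons from NADPH to cytochromes, did not pass the test (-0.03, adjusted p = 0.822). Sterol genes were among the results known when this list was chosen.

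Of 11 antioxidant and aldehyde reductases, 3 were higher and none lower (5 higher and 0 lower at an unadjusted p of 0.05, and 3 and 0 by DESeq2), with a median of 0.19. Txnrd1, the cytosolic thioredoxin reductase, was higher by 0.50 on the log2 scale (adjusted p = 0.00189). Nqo1, a quinone reductase, rose by 1.45 on the log2 scale (adjusted p = 0.00627) on 10 to 100 counts per library, at 0.909, 1.27 and 1.35 CPM in controls and 2.44, 3.78 and 3.32 CPM in AclyM-KO. Ptgr1, a reductase of prostaglandins and leukotrienes, had 0.42 (adjusted p = 0.0178) and lost its call without any one control, at adjusted p-values of 0.0689 to 0.0890 and log2 fold changes of 0.40 to 0.43. Without AclyM-KO replicate 2, 6 genes of this list passed, among them Akr1a1, an aldehyde reductase (adjusted p = 0.0599 with it and 0.00258 without).

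Of 6 NADPH oxidase genes, 1 was lower and none higher, with a median of -0.16. At an unadjusted p of 0.05 there were 3 lower and 0 higher, and DESeq2 called 1 lower and 0 higher. In 4 of the 6 every AclyM-KO library was below every control, as in 16.6% of all tested genes. In 1 of the 6 every AclyM-KO library was above every control, as in 16.3%. Cybb, the catalytic subunit gp91phox, was at 1178, 1179 and 1157 CPM in controls and at 922.9, 952.1 and 869.8 CPM in AclyM-KO. The groups did not overlap (log2 fold change -0.36, adjusted p = 0.00423), and Cybb passed in every fit that left out 1 library. Its partner Cyba did not pass the test (-0.14, adjusted p = 0.273, and -0.06 without AclyM-KO replicate 2).

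Of 8 genes of citrate and malate steps, 3 were higher and none lower (4 higher and 0 lower at an unadjusted p of 0.05, and 2 and 0 by DESeq2), with a median of 0.14. Slc25a1, which exports citrate from mitochondria, was at 69.02, 67.3 and 69.5 CPM in controls and at 97.0, 90.9 and 101.6 CPM in AclyM-KO, without overlap (log2 fold change 0.49, adjusted p = 0.00156). The malate dehydrogenases Mdh2 and Mdh1 had 0.30 (adjusted p = 0.0156) and 0.22 (adjusted p = 0.0465). Without any one control or AclyM-KO replicate 3, Slc25a1 was the 1 gene of this list still called. Cs, citrate synthase, had 0.14 (adjusted p = 0.182, and 0.0266 without AclyM-KO replicate 2).

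Of 10 regulators, Srebf2, the main transcription factor of sterol synthesis, was higher and none was lower (4 higher and 0 lower at an unadjusted p of 0.05, and 1 and 0 by DESeq2), with a median of 0.04. The log2 fold change of Srebf2 was 0.51 (adjusted p = 0.00145). Nfe2l2, encoding Nrf2, which acts through the antioxidant response element, did not pass under any alternative. Its log2 fold change was -0.02 (adjusted p = 0.860) and ran from -0.21, with its second transcript, to 0.01. In 7 of 19 alternatives a second regulator passed as higher, which was Myc without AclyM-KO replicate 1 (0.51) and Srebf1 in the other 6, among them without AclyM-KO replicate 2 (0.31), with total counts in place of TMM scaling (0.27) and with the GC and length offsets. Both were named after their values were seen.

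Proliferation genes were higher in the same comparison. Of 12, 8 were higher and none lower (12 higher at an unadjusted p of 0.05, and 8 by DESeq2), with a median log2 fold change of 0.50, Mcm5, Birc5, Top2a and Ccnb1 being at 0.58, 0.66, 0.64 and 0.76. Mcm3, a subunit of the replicative helicase, was at 0.32 (adjusted p = 0.0598) and passed in 6 of 17 alternatives, with an adjusted p of 0.0167 without AclyM-KO replicate 1. Their summed level was 748.1, 805.5 and 852.7 CPM in controls and 979.3, 1389 and 1055 CPM in AclyM-KO replicates 1, 2 and 3. AclyM-KO replicate 2 was thus the highest library for these genes, as it was for Me1, and the lowest AclyM-KO library for G6pdx, Pgd, Tkt and Taldo1. The number called was 3 without control replicate 1 and 4 without control replicate 2. The part of proliferation, or of the 3 macrophage markers that were lower, in the changes of Tkt, Pgd, Taldo1 and Me1 was not tested.

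**Figure D4:**
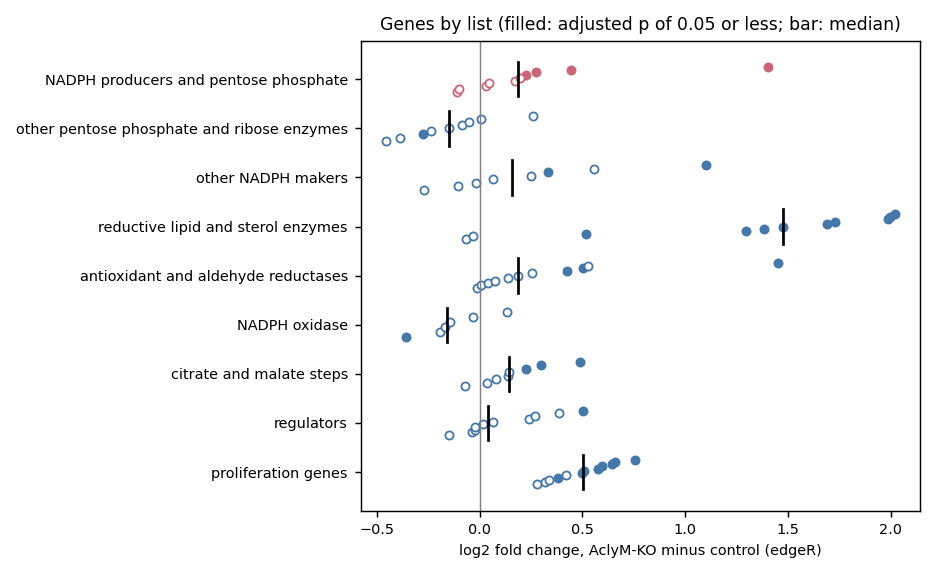
Log2 fold change (AclyM-KO minus control, edgeR) of every tested gene of the 10 (red, top row) and of the related lists (blue), filled where the adjusted p was 0.05 or less, with the median of each list as a black bar. The medians run from -0.16 for the NADPH oxidase genes to 1.48 for the reductive lipid and sterol genes, and the 10 genes have a median of 0.18.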

How the data were processed

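Bone marrow-derived macrophages of 3 AclyM-KO and 3 control libraries were compared. The authors isolated total RNA, prepared libraries with the strand-specific KAPA mRNA kit, aligned reads to mm10, removed alignments of low mapping quality with SAMtools and counted reads per RefSeq transcript with HOMER2. The submitters' processing notes name STAR 2.5.2b and CASAVA 1.8.2. The deposited values are raw counts of 35745 transcripts, and 6 further columns of values were not used here. HOMER2 was run at its default settings, and neither its handling of strand nor the RefSeq release is spelled out in the sources used here.

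A RefSeq gene table gave symbols to 35440 transcripts and GENCODE to 188. Reads on shared exons can be counted in several transcripts, so the transcript with the highest total stood for each gene. Genes were filtered with filterByExpr, TMM-scaled and tested in R 4.3.3 with edgeR 4.0.16 (quasi-likelihood test on genotype alone). The value that edgeR calls the biological coefficient of variation, here a spread between libraries, was 8.90%. RPKM used the same scaled library sizes. Fits were first tested on simulated data. The alternatives were DESeq2 1.42.0, limma-voom 3.58.1, other scalings, filters, transcripts and thresholds, the replicate number as a block, thinning of AclyM-KO replicate 2, offsets for GC content (known for 98.1% of tested genes) and length, and each library left out. GC offsets without AclyM-KO replicate 2 were added after seeing the data.

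The 10 genes and the lists were chosen with earlier results of these data known. Beside the 10 genes and Acly, the text names from each list up to 4 genes past the threshold with the smallest adjusted p and the most abundant gene not past it, unless it says otherwise. Some genes that this rule would name are not reported here, but they are included in every count.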

Additional observations from a re-analysis of the deposited data

How the results depend on the processing

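Of the 10 genes, the number higher in AclyM-KO was 4, and it was 3 to 5 under every alternative except a threshold of 0.01 (2, Me1 and Tkt) and leaving out single libraries (2 to 5, with 2 without control replicate 1, 2 or 3 or AclyM-KO replicate 3). None was lower under any alternative. Of all genes tested, 1416 passed, against 2187 with limma-voom and sample weights, 557 at a threshold of 0.01 and 598 to 2136 with single libraries left out. Some small changes that did not pass the test turned sign. With single libraries left out, the log2 fold change of Pgls ran from -0.213 to 0.0792, that of Rpe from -0.0555 to 0.0914 and that of Por from -0.0647 to 0.0280, with the sign turned without AclyM-KO replicate 2 in each. With limma-voom, Pgls had 0.00927, Rpe -0.0284 and Por 0.0140. With the GC content and length offsets Idh1 had -0.00569, and with those offsets and without AclyM-KO replicate 2, Rpe had -0.00807. With total counts only, Por had 0.003155 and Nfe2l2 0.0129. The fit with offsets but without AclyM-KO replicate 2, and all alternatives for genes of the related lists, were chosen after seeing the data. The cause of the differences between the alternatives was not tested. The log2 ratio of the oxidative over the non-oxidative sum stayed lower in AclyM-KO, by 0.07 to 0.12.

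The labels number the replicates alike in both groups without saying that a number marks a shared animal or day. Deviations of same-numbered libraries from their group means correlated at 0.09, 0.11 and -0.05, and not every library correlated best with its own number, so the libraries were treated as unpaired. With the replicate number as a block, 3 of the 10 genes passed as higher (Me1, Tkt and Pgd), Taldo1 being at an adjusted p of 0.0511, and 1583 of all genes passed.

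With 3 libraries a group, changes the size of that of Taldo1 sit at the edge of what the test called. Me1, Nqo1 and Rpia rest on low counts, from 10 in the lowest library to 326 in the highest.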
